A study of Mus musculus with 2 samples.

Results

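Non-cycling melanoblasts are the embryonic precursors of pigment cells that carried few transcripts of mitotic genes when they were captured. They were chosen from measured counts: a cell was taken as a melanoblast when it held at least 5 unique molecular identifiers (UMIs, tags that count each captured RNA molecule once) of Dct, Pmel and Mlana together and at most 10 of the matrix genes Lum, Dcn, Col1a1 and Col3a1 together, and as non-cycling when it held at most 4 UMIs of Top2a, Mki67, Nusap1, Cdk1, Ccnb1 and Birc5 together. This rule selected 451 of the 2368 cells kept, 351 from wild type (WT) and 100 from the Hira knockout (KO). The 13 genes of the rule describe how the cells were chosen and are not results.

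The study used mouse embryos at E15.5 whose Cre recombinase was driven by the promoter of the tyrosinase gene Tyr, with a tdTomato reporter at Rosa26 that Cre switches on by removing a stop cassette. WT embryos were TyrCre::Hira wt/wt:tdTomato and KO embryos TyrCre::Hira fl/fl:tdTomato, both on a mixed strain background close (~99.9%) to C57BL/6J. Trunk skin was digested with dispase and DNase, live tdTomato-positive cells were sorted, and single-cell RNA was read with a 10X Genomics Chromium 3′ kit. The data read here, a part of those of the study, held 1 library of each genotype. No value below therefore has a replicate, and no difference was tested. The study took each embryo through separately and pooled the WT and KO libraries for sequencing, so each library is read as 1 embryo. The driver limits the model, since Tyr-Cre is also active in some other neural crest lineages. The sorted cells held other cell types, whose source was not tested.

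Melanoblasts are of neural crest origin and spread through the skin of the embryo, and their descendants supply hair with pigment. They depend on the transcription factor MITF, on the receptor KIT and on endothelin signalling, and they start making melanosome proteins before any pigment is seen. HIRA is a chaperone that places the histone variant H3.3 on DNA outside of replication.

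The WT members held 1449192 UMIs in all, with a median of 3830 UMIs and 1356 genes per cell. The KO members held 529256 UMIs, with a median of 5059 UMIs and 1670 genes per cell. KO cells were thus read more deeply. No barcode was shared between the libraries, and doublets (barcodes with 2 cells) were kept. Levels are given as CPM: the UMIs of a gene summed over the members of a library, per 1000000 UMIs of those members. Intervals in brackets are 95% intervals of counting error only.

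Hira, the targeted gene, had 16 UMIs in WT members and 3 UMIs (5.67 CPM) in KO members, a log2 ratio of -0.96 (-3.38 to 0.84). The sources do not say whether the deleted part includes the 3′ end that the assay reads, so these counts check neither the deletion nor its absence. The sex-linked genes set the libraries apart. Xist, the RNA that silences 1 X chromosome in female cells, had 3143 UMIs in WT members and 1 UMI in KO members. The Y-linked gene Eif2s3y, a translation factor subunit, had 0 UMIs in WT members and 32 in KO members, and the RNA helicase gene Ddx3y had 0 and 29. The WT library therefore read as female and the KO library as male, and sex, genotype and library cannot be told apart in any comparison of KO with WT.

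The members made up 22.8% (20.7 to 25.0) of kept cells in WT and 12.1% (9.94 to 14.5) in KO. Among melanoblasts alone, 351 of 491 WT cells (71.5%, 67.3 to 75.4) and 100 of 137 KO cells (73.0%, 64.7 to 80.2) were non-cycling, and these intervals overlap. Because a limit in raw UMIs is easier to pass for a shallow cell, the share was also read on cells thinned to 2000 UMIs each, with a limit of 2 UMIs and 7 WT cells below that depth left out. It was then 390 of 484 cells (80.6%) in WT and 111 of 137 (81.0%) in KO.

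The summed UMIs of Dct, Pmel and Mlana in a member had a median of 17 in WT, from 5 to 157, and of 21 in KO, from 5 to 74. The matrix sum had a median of 0 in WT members and 2 in KO members. The cycle sum was 0 in 219 WT and 54 KO members. At the cycle limit itself, 14 WT and 5 KO members held 4 UMIs, and 15 WT and 3 KO melanoblasts held 5 UMIs and were counted as cycling. At the melanoblast limit, 39 WT members held a sum of 5 or 6, and 25 WT cells held 3 or 4 and were left out. Ptgds stood at 2202 CPM in the first set and 1905 CPM in the second, and Kit at 286 and 368 CPM. Syt4 stood at 149 CPM (23 UMIs) and 66.9 CPM (6 UMIs). Of these genes, which the rule did not use, Ptgds and Kit were thus within 2-fold across the limit and Syt4 was not. In KO the same sets held 5 and 2 cells.

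**Figure D1:**
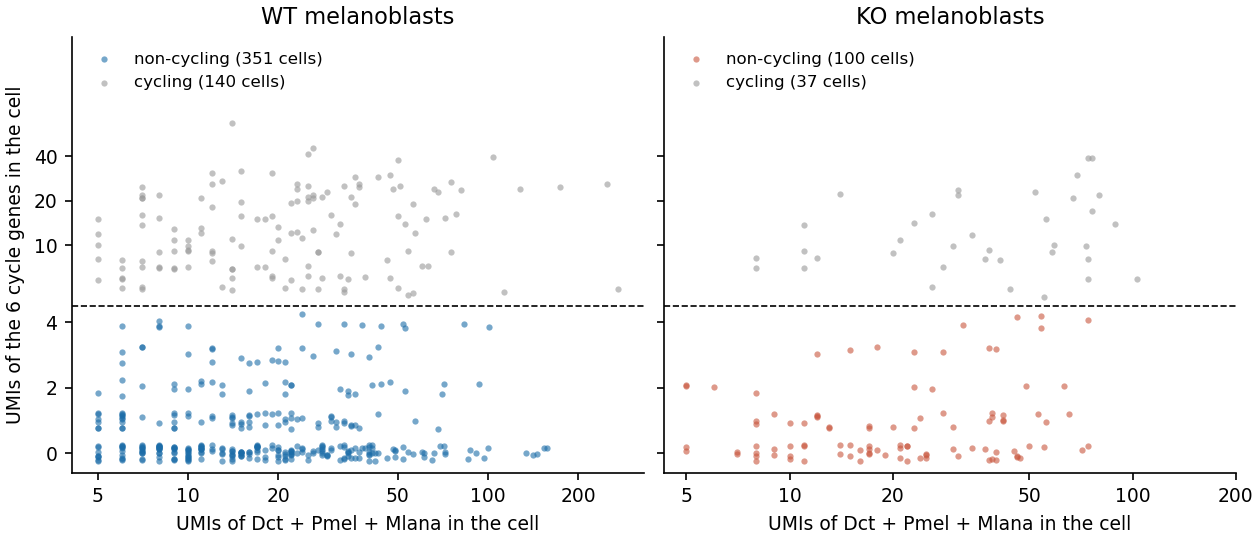
Each point is 1 melanoblast of WT (left) or KO (right), placed by its UMIs of Dct, Pmel and Mlana (log axis) and by its UMIs of the 6 cycle genes, with small random shifts upward or downward to part overlapping points. Coloured points below the dashed limit are the 351 and 100 members and grey points the 140 and 37 cycling cells, and no gap parts them at the limit.

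The marker genes outside the rule were then used to check the name. Ptgds, which encodes the lipocalin-type prostaglandin D synthase (chr2:25466709-25470046, minus strand), stood at 3002 CPM in WT members and 3140.3 CPM in KO members. It was found in 96.9% of WT and 97% of KO members, against 23% and 38.1% of macrophage-gated cells (100 WT and 21 KO cells chosen by C1q and other macrophage genes), which should lack it and were deeper, with medians of 5571.5 and 8122 UMIs. On cells thinned to 2000 UMIs, with 7 WT members left out, the shares were 93.0% and 91% of members against 12.1% and 4.76% of macrophage-gated cells. Syt4, a vesicle protein of the synaptotagmin family, stood at 217 and 147 CPM. Syt4 was found in 45.9% of WT and 36% of KO members (30.5% and 20% when thinned), and in 0 of 99 and 0 of 21 thinned macrophage-gated cells, which allows a share of up to 3.03% and 14.3%. The label holds by these markers: both genes stood above free RNA in both libraries, Ptgds in nearly all members and Syt4 in fewer than 1 in 2.

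Of the markers that chose the cells, Dct (dopachrome tautomerase, a melanin enzyme) stood at 3509.5 CPM in WT members and 2777 CPM in KO members, Pmel (the fibril protein of melanosomes) at 1625 and 1438 CPM, and Mlana (a melanosome membrane protein) at 757 and 669 CPM. Other markers were low: Tyrp1, a melanin enzyme, had 24 UMIs in WT members, in 9 of 351 cells with 8 UMIs in 1 of them, and 0 in KO members. The melanosome receptor gene Gpr143 stood at 27.6 and 35.9 CPM. The reporter RNA had 19 UMIs (13.1 CPM) in WT and 6 UMIs (11.3 CPM) in KO members and was found in 5.41% and 6% of them, while macrophage-gated cells gave 6% and 9.52%, so its counts do not mark the members.

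Against all other kept cells, 22 of 3065 genes of at least 30 CPM in the members of both libraries stood at least 4-fold higher in both (0.718%). The number was 38 with means over cells, and 11 without doublet-like cells (at least 5 UMIs of macrophage, mast cell, keratinocyte or endothelial markers). That setting also took cells of those types out of the other cells. The rule used this contrast, so nothing is read from the count. The other cells include cycling melanoblasts, which carry the same lineage genes and lower these ratios. Listed in full after their values were seen, the 22 genes were Tspan10, Wdr95, Trpm1, Mc1r, Dqx1, Ptgds, Syt4, Mcoln3, Gpnmb, Rapgef4, Cystm1, Tyr, Bace2, Slc45a2, Mt2, Slc24a5, Npy, Mgll, Sgip1, Cpne4, Fam174b and Scly.

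Several of them have roles outside of melanin synthesis. Mt2, a metallothionein that binds zinc, stood at 1631 CPM in WT members and 1653 CPM in KO members, against 361 and 209 CPM in the other cells. Mt1, a second metallothionein gene chosen after its values were seen, stood at 4327 and 4436 CPM against 1208 and 709 CPM. With ribosomal protein genes left out, Mt1 ranked 7 in WT and 6 in KO by its level in the members, above Dct. Mt2 ranked 34 and 36. Npy, a secreted neuropeptide, stood at 572 and 348 CPM against 131 and 53.5 CPM. The endolysosomal channel gene Mcoln3 stood at 273 and 247 CPM against 52.2 and 23.3 CPM. Rapgef4, an exchange factor that senses cyclic AMP, stood at 194 and 115 CPM against 40.3 and 11.2 CPM. The protease gene Bace2, which cuts the PMEL protein, stood at 172 and 151 CPM against 37.2 and 17.2 CPM. Each of these genes was higher in the members of both libraries than in macrophage-gated cells. Further genes at 100 CPM or more with large ratios were Syngr1, Phlda1 and St3gal6, at 389, 1329 and 175 CPM in WT and 346, 1256 and 134 CPM in KO members.

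MITF binds a short motif, TCATGTG, and the promoters of these genes were searched for it on both strands, because the genes are high together in the members. The promoter table used, from RefSeq (GRCm38.p6), held a promoter, 250 bases before to 50 bases after the start, for 16 of the 22 genes, and 7 of the 16 (43.8%) held the motif: Tspan10, Trpm1, Mc1r, Tyr, Slc24a5, Cpne4 and Scly. The motif was in 1165 of all 27025 genes with a promoter (4.31%) and in 65 of 2377 matched genes among those compared with other cells (2.73%). Wdr95, Dqx1, Syt4, Cystm1, Bace2 and Slc45a2 had no entry in that table. A match is a description, not a site or a cause. The 5 promoters below are shown because they hold the motif and belong to pigment-cell genes among the 22; promoters without it, such as that of Gpnmb, are not shown. In the sequences the capitals mark the motif or its reverse complement CACATGA. Tyr lies at chr7:87493463-87493762 (minus strand), Slc24a5 at chr2:125067877-125068176 (plus strand), Trpm1 at chr7:64153585-64153884 (plus strand), Tspan10 at chr11:120442381-120442680 (plus strand) and Mc1r at chr8:123406832-123407131 (plus strand). For Trpm1, 1 of 2 promoter entries is shown.
Tyr: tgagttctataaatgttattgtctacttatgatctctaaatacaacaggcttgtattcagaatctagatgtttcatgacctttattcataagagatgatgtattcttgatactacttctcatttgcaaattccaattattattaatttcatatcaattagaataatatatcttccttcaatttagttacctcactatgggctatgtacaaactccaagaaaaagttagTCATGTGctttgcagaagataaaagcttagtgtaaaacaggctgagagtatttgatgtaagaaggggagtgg
Slc24a5: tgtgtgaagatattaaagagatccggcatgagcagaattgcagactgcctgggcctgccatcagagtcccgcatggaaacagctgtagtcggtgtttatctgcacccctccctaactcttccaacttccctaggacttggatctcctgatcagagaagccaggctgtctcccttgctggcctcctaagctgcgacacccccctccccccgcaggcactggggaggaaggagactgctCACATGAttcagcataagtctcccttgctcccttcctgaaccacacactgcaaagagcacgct
Trpm1: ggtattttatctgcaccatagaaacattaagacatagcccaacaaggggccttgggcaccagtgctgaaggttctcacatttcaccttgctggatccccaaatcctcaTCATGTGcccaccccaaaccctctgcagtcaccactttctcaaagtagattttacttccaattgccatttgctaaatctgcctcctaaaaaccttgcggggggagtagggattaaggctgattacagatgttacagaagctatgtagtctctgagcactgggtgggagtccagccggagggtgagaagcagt
Tspan10: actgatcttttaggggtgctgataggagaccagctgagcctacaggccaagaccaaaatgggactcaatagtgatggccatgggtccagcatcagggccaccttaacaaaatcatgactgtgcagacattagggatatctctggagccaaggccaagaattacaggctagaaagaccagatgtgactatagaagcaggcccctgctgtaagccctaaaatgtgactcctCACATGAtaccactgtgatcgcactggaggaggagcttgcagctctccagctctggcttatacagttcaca
Mc1r: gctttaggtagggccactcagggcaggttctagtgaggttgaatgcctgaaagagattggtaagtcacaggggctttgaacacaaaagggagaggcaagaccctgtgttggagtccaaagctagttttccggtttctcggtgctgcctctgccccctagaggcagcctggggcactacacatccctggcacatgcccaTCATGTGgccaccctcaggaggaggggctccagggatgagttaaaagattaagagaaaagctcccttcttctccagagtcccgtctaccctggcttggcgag

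Between genotypes, 3405 genes had a mean level of at least 30 CPM in WT and KO members. Of these, 70 stood at least 2-fold higher in KO (2.06%) and 38 at least 2-fold lower (1.12%). The 70 include 4 matrix genes of the rule, Col1a1, Col3a1, Lum and Dcn, which are not read as results. The median log2 ratio was 0.00, with quartiles of -0.21 and 0.24. All 70 and 38 intervals were clear of 0, and 28 and 7 lay wholly past 2-fold. Most of the gene set thus differed little between genotypes in the members. The number past 2-fold depended on the setting: 163 higher and 117 lower on thinned counts, 338 and 237 at a filter of 10 CPM, and 14 and 4 at 100 CPM.

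**Figure D2:**
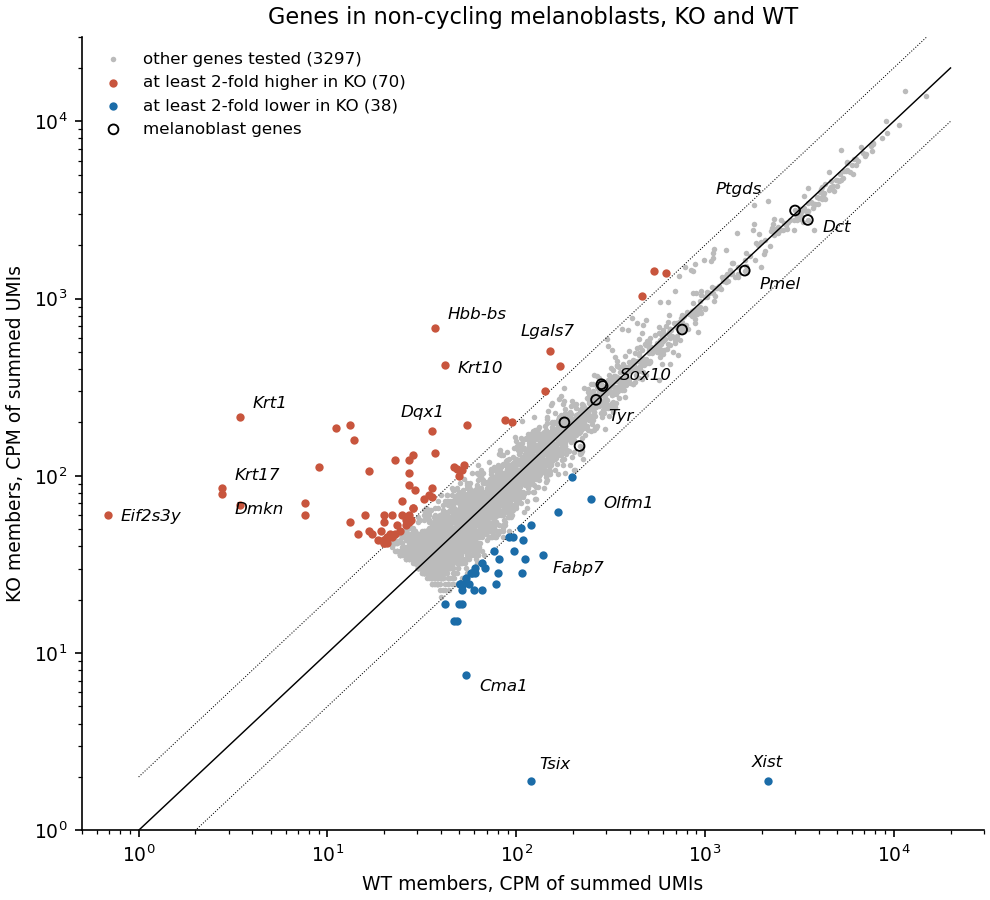
Each point is 1 of the 3405 genes by its level in WT members (x, CPM) and KO members (y, CPM) on log axes, with a level of 0 drawn at the level of 1 UMI, a solid line at equal levels and dotted lines at 2-fold. The 70 genes higher in KO are red and the 38 lower are blue, and the melanoblast genes (open circles) lie between the dotted lines.

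The 12 genes with the highest lower bounds were Krt1, Eif2s3y, Hbb-bs, Krt17, Dmkn, Hba-a2, Krtdap, Stfa3, Krt10, Hba-a1, Hbb-bt and S100a9. Krt1, a keratin of differentiated epidermis, had 5 UMIs (3.45 CPM) in WT and 114 UMIs (215 CPM) in KO members, a log2 ratio of 5.96 (4.70 to 7.61). Its partner keratin Krt10 stood at 42.1 and 421 CPM, a log2 ratio of 3.32 (2.91 to 3.76). The globin gene Hbb-bs stood at 37.3 and 686 CPM, a log2 ratio of 4.20 (3.79 to 4.64). Apart from Eif2s3y, the named genes that were higher in KO belong to epidermis, red blood cells or granulocytes rather than to melanoblasts, and globin copies are too alike for reads to be assigned with certainty. The most abundant of the 70, chosen after their values were seen, were AY036118 at 535 and 1434 CPM and Gm42418 at 623 and 1387 CPM, gene models that overlap ribosomal RNA. Of the 70 genes, 32 stood higher in the other KO cells than in the KO members, and 52 stood higher in the other WT cells than in the WT members. Summed, the 70 genes reached 3769 CPM in WT and 11574.7 CPM in KO members, and 15779.9 and 63001.9 CPM in the other cells.

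Marker lists of other cell types moved with these ratios. Keratinocyte markers summed to 170 CPM in WT and 1136 CPM in KO members, with 0 genes at 0. Krt14 was the most abundant in WT and Krt10 in KO. Of 8 genes, 7 passed the filter on the mean and 6 were at least 2-fold higher. Only 1 stood at 30 CPM or more in both genotypes, so nothing is read from the 6. Erythroid markers summed to 71.1 and 1143 CPM, with Hbb-bs the most abundant, and 4 of 8 genes at 0 in WT and 3 in KO. The 4 that passed the filter were at least 2-fold higher, but only 1 stood at 30 CPM or more in both genotypes. Nothing is read from that count either. Mesenchymal markers summed to 177 and 682 CPM, with 5 of 10 at least 2-fold higher, 0 at 0, and Col3a1 the most abundant in WT and Col1a2 in KO. The rule capped 4 of those 5, so of them only Col1a2 lies outside it. Of the 5, 2 stood at 30 CPM or more in both genotypes. The count and the mesenchymal sum are given as a description. In the other cells, keratinocyte markers summed to 406 CPM in WT cells and 7761 CPM in KO cells, erythroid markers to 3592 and 27432 CPM, and mesenchymal markers to 5329 and 9884 CPM. Keratinocyte and erythroid markers were thus higher in the KO library in the members and outside them, and the part of the 3 lists in the KO to WT ratios was not tested.

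Hbb-bs UMIs were spread over members: 50 of 351 WT and 96 of 100 KO members held at least 1. Among thinned cells the shares were 8.72% of WT and 79% of KO members, beside 13.1% and 66.7% of macrophage-gated cells. Hbb-bs counts of the members were therefore at the level of free RNA, and the KO to WT ratio is not read as expression. The keratin counts were distributed otherwise. In KO, 1 member held 310 of the 601 keratinocyte UMIs, with 53 of 114 of Krt1 and 133 of 223 of Krt10, beside 65 UMIs of the melanoblast sum. That member also held 35 of 45 UMIs of Krt17, a gene outside the list. In WT, 1 member held 133 of 247. Without these cells the keratinocyte list summed to 79.1 and 561 CPM. When cells with at least 5 UMIs of macrophage, mast cell, keratinocyte or endothelial markers were left out (6 WT and 18 KO members), Krt10 stood at a log2 ratio of 1.40 and Krt1 at 4.82, so both remained past 2-fold. In macrophage-gated cells Krt1 stood at 6.36 and 99.4 CPM and Krt10 at 11.1 and 88.3 CPM, and the keratinocyte list had a log2 ratio of 3.50, against 2.74 in the members. Krt10 stood above these levels in the members of both genotypes, at 42.1 and 421 CPM. Krt1 did so in KO (215 CPM) but not in WT (3.45 CPM). The keratinocyte list summed to 31.8 and 359 CPM in macrophage-gated cells. The source of the keratin counts was not tested, and the ratios are not read as expression by the members.

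Mast cell markers summed to 140 CPM in WT and 11.3 CPM in KO, with the protease gene Cma1 the most abundant in both, and 1 of 8 genes at 0 in WT and 5 in KO. Adipocyte markers summed to 94.5 and 15.1 CPM, with Fabp4 the most abundant in WT, Car3 in KO, and 2 of 6 genes at 0 in WT and 3 in KO. Of the 137 WT adipocyte UMIs, 2 members held 104, with at most 52 in 1 member. Without 1 of these members the WT sum was 59.1 CPM, and the other still held much of it. Macrophage markers summed to 124 and 90.7 CPM, led by Pf4 in WT and Tyrobp in KO, and endothelial markers to 60.7 and 71.8 CPM, led by Egfl7. Pericyte markers had 4 and 2 UMIs and muscle markers 3 and 5 UMIs. The part of these lists in the KO to WT ratios was not tested.

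**Figure D3:**
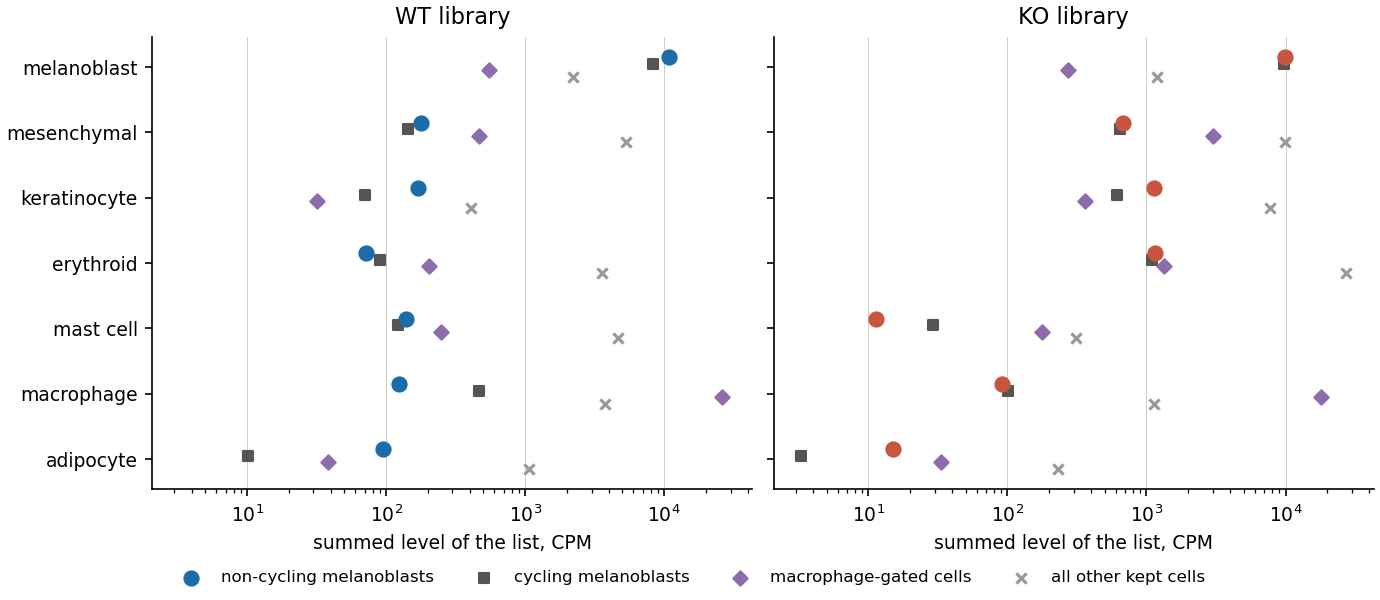
Summed level (CPM, log axis) of 7 marker lists in the members (large circles) and in cycling melanoblasts, macrophage-gated and all other kept cells of the WT library (left) and the KO library (right). Keratinocyte and erythroid markers lie further right in KO in each kind of cell, and mast cell markers further left.

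The 12 genes with the lowest upper bounds were Xist, Tsix, Cma1, Olfm1, Fabp7, Cox20, Smyd2, Smpdl3a, Gsta1, Sdpr, Eci1 and Bbip1. Tsix overlaps Xist on the other strand, and whether its counts came from Xist reads was not tested. Cma1 had 79 and 4 UMIs, a log2 ratio of -2.85 (-4.76 to -1.44), and stood at 2051 and 96.5 CPM in the other cells. Cma1 is a mast cell gene, so its ratio moves with the mast cell list.

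Olfm1, a secreted protein of the nervous system, stood at 249 CPM in WT members and 73.7 CPM in KO members, a log2 ratio of -1.76 (-2.27 to -1.28), and at 12.7 and 5.52 CPM in macrophage-gated cells. Cycling melanoblasts gave Olfm1 at 203 and 75.1 CPM, so it was also lower in the KO cells that the rule split off. Fabp7, a fatty acid carrier of glia and their precursors, stood at 138 and 35.9 CPM, a log2 ratio of -1.94 (-2.70 to -1.26). In cycling melanoblasts Fabp7 stood at 148 and 32.6 CPM, and in all other kept cells at 306 and 246 CPM. Smpdl3a, a phosphodiesterase, stood at 166 and 62.4 CPM, a log2 ratio of -1.41 (-1.98 to -0.88). In cycling melanoblasts Smpdl3a stood at 137 and 94.6 CPM, which is within 2-fold. Gsta1, a glutathione transferase, stood at 78.7 and 24.6 CPM, and had 0 and 0 UMIs in macrophage-gated cells, which allows up to 4.77 and 16.6 CPM. The 13 UMIs of Gsta1 in KO members gave an interval of 13.1 to 42.0 CPM, so its counts lay above free RNA in WT and were not set apart from it in KO. Cox20, an assembly factor of cytochrome oxidase, stood at 107 and 28.3 CPM in members and at 89.1 and 105 CPM in macrophage-gated cells. Smyd2, a protein methyltransferase, stood at 111 and 34.0 CPM, and in macrophage-gated cells at 39.8 and 27.6 CPM. In cycling melanoblasts Cox20 stood at 99.3 and 42.4 CPM and Smyd2 at 111 and 49.0 CPM, so both were past 2-fold there too.

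Of the 22 genes high in the members, 1 was past 2-fold higher in KO and 1 lower, with a median log2 ratio of -0.07 against 0.00 over all genes tested. Over those 3405 genes 2.06% were higher and 1.12% lower, so nothing is read from 1 gene each way. The higher gene was Dqx1, which encodes a DEAQ-box helicase-like protein and stood at 55.2 CPM in WT members and 193 CPM in KO members, a log2 ratio of 1.80 (1.37 to 2.24). Its UMIs came from only 16 of 351 WT and 14 of 100 KO members, a spread between cells that this interval does not cover. The lower one was Mgll, the monoacylglycerol lipase, at 119 and 52.9 CPM, a log2 ratio of -1.17 (-1.80 to -0.59). Mgll was named after its value was seen.

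Pigment and melanosome genes were compared as a list. Of 24 genes, 14 passed the 30 CPM filter, 1 was at least 2-fold higher in KO and 0 lower, and the median log2 ratio was 0.03. Beside 2.06% higher and 1.12% lower over all 3405 genes, a count of 1 in so short a list is not read as a result. The gene past 2-fold was Bloc1s1, a subunit of a complex that sorts cargo to melanosomes and lysosomes, at 53.1 and 115 CPM, with a log2 ratio of 1.12 (0.61 to 1.62). Bloc1s1 also stood at 82.7 and 99.4 CPM in macrophage-gated cells. Tyr, the enzyme of the first step of melanin synthesis, stood at 265 and 268 CPM. The transporter genes Slc45a2 and Slc24a5, which set melanosome pH and ions, stood at 150 and 102 CPM and at 469 and 387 CPM. Their log2 ratios were -0.56 (-1.02 to -0.12) and -0.27 (-0.51 to -0.05). Trpm1, a channel gene that MITF is known to drive, stood at 125 and 174 CPM, a log2 ratio of 0.48 (0.10 to 0.85). All 4 stood higher than in macrophage-gated cells, where Slc24a5, the highest there, reached 25.4 CPM in WT, so the counts of these 4 genes lay above free RNA in both genotypes. Other genes were low: the melanosome channel gene Oca2 had 1 and 0 UMIs, and Rab27a, which tethers melanosomes to their motor, stood at 24.2 and 28.3 CPM. The tetraspanin Cd63 was the most abundant of the list, at 1975 and 1502 CPM.

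Of 26 lineage transcription factors, 12 passed the filter, 0 lay past 2-fold in either direction, and the median log2 ratio was 0.19. Over all 3405 genes 2.06% were higher and 1.12% lower, so 0 of 12 is near that share. Mitf, which drives the melanosome genes, stood at 180 CPM in WT members and 200.3 CPM in KO members, and Sox10, which drives Mitf, at 283 and 329 CPM. Pax3, which acts with Sox10, stood at 331 and 300.4 CPM. The intervals of these 3 ratios held 0. Tfap2b stood at 153 and 249 CPM, a log2 ratio of 0.71 (0.39 to 1.03), and Bhlhe41, a repressor of the clock family, at 62.8 and 115 CPM, a log2 ratio of 0.88 (0.38 to 1.36). Hes1, a target of Notch signalling, stood at 226 and 125 CPM, a log2 ratio of -0.86 (-1.26 to -0.47). None of these 3 ratios reached 2-fold, though their intervals were clear of 0. The glial factors Foxd3 and Sox5 were low in members, at 17.2 and 13.2 CPM and at 13.1 and 22.7 CPM, and Sox2 had 1 and 0 UMIs, against 12.8 CPM in the other WT cells.

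**Figure D4:**
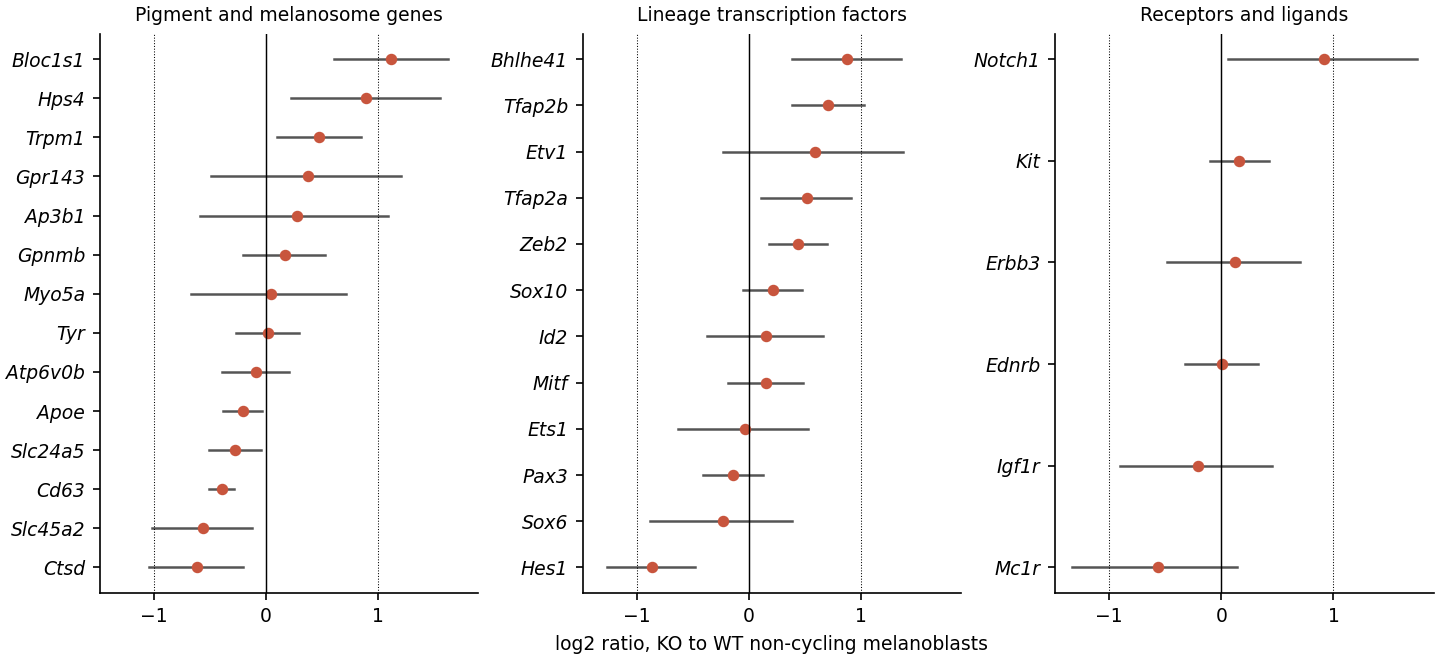
Log2 ratio of KO to WT members (points) with 95% counting intervals (lines) for the 14 pigment genes, 12 transcription factors and 6 receptors that passed the filter. Bloc1s1 alone among these genes lies past a dotted 2-fold line.

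Of the 31 receptors and ligands, 6 passed the filter and 0 lay past 2-fold, with a median log2 ratio of 0.07. As 2.06% of all 3405 genes were higher and 1.12% lower, nothing is read from 0 of 6. Kit, the receptor for Kitl, stood at 287 and 321 CPM, and the endothelin receptor Ednrb at 203 and 204 CPM. Kit stood at 36.6 and 0 CPM in macrophage-gated cells, so its counts lay above free RNA. Ednrb stood at 196 and 155 CPM there, so its level in members was near that of cells chosen for other genes. Erbb3, a neuregulin receptor, stood at 60.7 and 66.1 CPM. Mc1r, the receptor for melanocortin, stood at 58.7 and 39.7 CPM. The ligands were near absent: Kitl had 2 and 0 UMIs, Edn3 1 and 0, and Nrg1 and Hgf 0 and 0, which allows up to 2.07 CPM in WT and 5.67 CPM in KO members. Among other kept cells Kitl stood at 33.5 and 42.5 CPM, so the ligand was read elsewhere in the same skin.

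Of 28 adhesion and motility genes, 16 passed the filter, 0 lay past 2-fold, and the median log2 ratio was -0.07. That count is near the share over all 3405 genes (2.06% higher and 1.12% lower). The epithelial cadherin Cdh1 stood at 125 and 88.8 CPM in members and at 3.18 and 0 CPM in macrophage-gated cells. Cdh2, the neural cadherin, stood at 8.28 and 11.3 CPM in members and at 39.4 and 39.6 CPM in all other kept cells. Members thus held less N-cadherin transcript than the other cells. The intermediate filament gene Vim stood at 3795 and 2451 CPM, a log2 ratio of -0.63 (-0.72 to -0.54), and the adhesion molecule Cadm1 at 125 and 214 CPM, a log2 ratio of 0.77 (0.42 to 1.12).

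The HIRA and H3.3 genes also showed no member past 2-fold among 6 of 10 that passed. With 2.06% higher and 1.12% lower over all 3405 genes, this is near the share. H3f3a and H3f3b, which both encode H3.3, stood at 2323 and 2810 CPM and at 1824 and 2645 CPM. The log2 ratio was 0.27 (0.19 to 0.36) for H3f3a and 0.54 (0.44 to 0.63) for H3f3b, and near-identical copies make the assignment of reads between such genes uncertain. The partner Ubn1 stood at 62.8 and 69.9 CPM, and the subunit Cabin1 had 13 and 4 UMIs.

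In other lists, 0 of 6 survival and apoptosis genes (median log2 -0.16) and 0 of 8 tubulin genes (-0.13) lay past 2-fold. Past 2-fold were also 0 of 12 immediate-early and heat-shock genes (-0.02) and 0 of 22 oxidative and glycolytic enzymes (-0.17). As 2.06% of all 3405 genes were higher and 1.12% lower, nothing is read from these counts. Summed, the survival list had a log2 ratio of -0.22 (-0.42 to -0.02) and the tubulins -0.22 (-0.31 to -0.13). The enzymes had -0.12 (-0.17 to -0.08). The immediate-early and heat-shock list had -0.01 (-0.07 to 0.06), an interval that held 0. Of 32 matrix genes outside the rule, all 5 that passed had a log2 ratio above 0, with a median of 0.28. The 32 genes summed to 700.4 CPM in WT and 1349 CPM in KO members. That is a log2 ratio of 0.95 (0.81 to 1.09), beside 1.61 in macrophage-gated cells. The 1 gene at least 2-fold higher was Col1a2, at 35.9 and 179 CPM, and it stood at 1140 and 2457 CPM in the other cells. Ribosomal protein genes took 36.0% of WT and 33.8% of KO member UMIs, against 29.7% and 27.3% in all other kept cells.

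Against cycling melanoblasts (140 WT and 37 KO cells), 3 of 3161 genes stood at least 2-fold higher in non-cycling cells of both libraries (0.0949%) and 75 at least 2-fold lower (2.37%). The rule used this contrast, so nothing is read from the counts. Cycling cells were deeper, with medians of 6536.5 and 7857 UMIs. The 3 higher genes were Hist1h2bc, Ass1 and Dqx1. Hist1h2bc, a histone H2B gene, stood at 219 CPM in WT members and 195 CPM in KO members against 64.5 and 45.7 CPM in cycling cells. Ass1, of arginine synthesis, stood at 53.8 and 69.9 CPM against 21.5 and 22.8 CPM. Next came the cyclin gene Ccnd2, at 625 and 705 CPM against 308 and 359 CPM, and then Wdr95, Slc15a4, Snhg9, S100a1, Zfos1 and Tspan10. In cycling cells Ptgds stood at 2038 and 2559 CPM, Tyr at 237 and 274 CPM and Mitf at 203 and 238 CPM. Of the genes high in the members, 20 of 21 had a log2 ratio to cycling cells above 0 in WT and 16 of 21 in KO, with medians of 0.44 and 0.14 against -0.03 and -0.01 over all genes tested, and with 3 and 2 genes past 2-fold. These genes were chosen against cells that include the cycling melanoblasts, so nothing is read from that direction.

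The genes with the smallest ratios included Hist1h2ap, Incenp, Ube2c, Hmmr, Plk1, Spc25, Hist1h1b, Aurkb and Cenpf, which act in chromosome packing, spindle assembly and cell division. Ube2c, of the complex that ends mitosis, stood at 34.5 and 45.3 CPM in members against 660.0 and 623 CPM. The 26 G2/M genes outside the rule summed to 1450 CPM in WT and 1485 CPM in KO members, against 7637 and 6710 CPM in cycling cells. All 20 of those that passed the filter were at least 2-fold lower in both libraries. The 25 S phase genes summed to 1500 and 1449 CPM against 2131 and 1759 CPM, log2 ratios of -0.51 and -0.28, so the members held S phase transcripts at a level nearer to cycling cells.

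The rule looks at mitotic genes, so it can keep cells in S phase. When thinned, 21.8% (17.6 to 26.5) of WT and 16% (9.43 to 24.7) of KO members held at least 5 S phase UMIs, against 40% and 29.7% of cycling cells. Macrophage-gated cells gave 18.2% (11.1 to 27.2) and 9.52% (1.17 to 30.4), which overlap the shares of members. Those cells were not chosen by cycle genes and held up to 27 and 19 UMIs of G2/M genes outside the rule in 1 cell. They are thus no measure of free RNA for cycle genes. The overlap cannot tell S phase UMIs of the members from free RNA, and no cycling is read from it. At least 5 UMIs of G2/M genes outside the rule were held by 14.8% of WT and 19% of KO members, up to 37 and 24 UMIs in 1 cell, against 89.3% and 86.5% of cycling cells and 21.2% and 28.6% of macrophage-gated cells. The replication licensing genes Mcm2 and Mcm3 stood at 41.4 and 49.1 CPM and at 74.5 and 51.0 CPM in members, against 35.8 and 29.4 CPM and 60.4 and 32.6 CPM in cycling cells. Rrm2, which makes nucleotides in S phase, stood at 80.0 and 62.4 CPM against 184 and 166 CPM. Of the 18 S phase genes that passed the filter, 5 in WT and 8 in KO stood above the cycling level, with median log2 ratios of -0.55 and -0.22, so Mcm2 and Mcm3 were not typical of the list. Members with a cycle sum of 0 gave S phase sums of 1108 and 1209 CPM, and those with 1 to 4 gave 2028 and 1671 CPM. The name non-cycling therefore stands for low counts of the 6 genes of the rule and does not place every member outside the cell cycle.

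Cdkn1a, the inhibitor p21, stood at 77.3 CPM in WT members and 45.3 CPM in KO members against 20.5 and 6.53 CPM in cycling cells, but macrophage-gated cells gave 164 and 66.2 CPM, above the members. Cdkn2a and Cdkn2b, the inhibitors of senescence programmes, had 0 UMIs in both, which allows up to 2.07 and 5.67 CPM. Of the 24 inhibitors, D cyclins and exit genes, 10 passed the filter between genotypes and 0 lay past 2-fold, with a median log2 ratio of 0.17. The share over all 3405 genes was 2.06% higher and 1.12% lower, so 0 of 10 is near it.

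Members were also binned by their melanoblast sum, which the rule used and which depends on depth, so the values of the bins are a description. In WT, Ptgds went from 2112 CPM in the 90 cells with a melanoblast sum of 5 to 9 to 4139 CPM in the 57 cells with a sum of 40 or more, and Slc24a5 from 262 to 869 CPM. In KO, Ptgds went from 3059 to 3643 CPM and Slc24a5 from 129 to 436 CPM over 17 and 23 cells. The order in KO was not even: over sums of 10 to 19 and 20 to 39, Ptgds stood at 2826 and 3027 CPM and Slc24a5 at 407 and 448 CPM. Mt1 ran the other way, from 4785 to 3160 CPM in WT and from 5732 to 2901 CPM in KO. Median depth also differed along the same bins, from 3411 to 4702 UMIs in WT and from 4485 to 5800 UMIs in KO, and its part was not tested.

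The variance of thinned counts over members, divided by their mean, is 1 for pure counting noise and had a median of 1.03 in WT and 0.98 in KO over 3349 genes. Ptgds reached 4.16 and 3.56, so it varied between members beyond counting noise. Dqx1 reached 9.52 and 6.85. It was found in 16 of 351 WT members, with up to 15 UMIs in 1 cell, and in 14 of 100 KO members, with up to 18 UMIs. The Dqx1 level of the members thus came from few cells with many UMIs each, in both genotypes. In macrophage-gated cells Dqx1 was found in 2 of 100 WT and 0 of 21 KO cells, and their median depth was higher.

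With 1 library of each genotype, animal and sex differ along with Hira, and no counting interval covers them. Near the filter of 30 CPM the depth was low: the survival gene Bcl2, with 67 and 20 UMIs, had a log2 ratio of -0.29 (-1.09 to 0.45), so a 2-fold fall and no difference both lay within it.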

How the data were processed

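The authors aligned reads of each library with Cell Ranger 2.2.0 to mm10 with the reporter and Cre sequences added and deposited raw UMI counts per gene and barcode, 28000 genes in each of 2 libraries (1546 WT and 846 KO barcodes). Barcodes with at least 100 genes and at most 10% mitochondrial UMIs were kept (1540 and 828). Members were chosen by the rule in the report; macrophage-gated cells held at least 5 UMIs of C1qa, C1qb and C1qc and at least 2 of Ptprc, Csf1r, Tyrobp and Fcer1g. UMIs were summed over cells and scaled to CPM. Intervals are Clopper-Pearson for shares, exact Poisson for levels and exact conditional binomial for log2 ratios. Ratios with a count of 0 use a floor of 3 UMIs over the group. No test was made, since each genotype had 1 library. Thinning drew 2000 UMIs per cell with seed 0.

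Members and gene lists were chosen with earlier results of these data known. Named genes are the 12 with the highest lower bound and the 12 with the lowest upper bound of the KO to WT ratio, the 15 with the largest ratio to other cells in the library where it is smaller (at least 100 CPM), genes among the 10 largest and 10 smallest against cycling cells, and members of fixed lists. Promoters came from RefSeq GRCm38.p6. Python 3.11.15, numpy 2.4.6, scipy 1.17.1 and matplotlib 3.10.9 were used. The procedure was tested on simulated data.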

Additional observations from a re-analysis of the deposited data

How the results depend on the processing

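Each choice was changed alone, except that the thinned cycle limit also moved the limit to 2 UMIs. It also left out all cells under 2000 UMIs, among them 7 WT melanoblasts. The share of kept cells was 16.9% in WT with a melanoblast limit of 10 UMIs, 20.5% and 25.9% with cycle limits of 2 and 8, and 27.1% with the thinned limit. Without doublet-like cells it was 27.4% in WT and 15.3% in KO. That setting left out every kept cell with at least 5 UMIs of macrophage, mast cell, keratinocyte or endothelial markers. Cells of those types thus left the total too, so these shares are not read as an effect of doublets. The non-cycling share of melanoblasts was 64.4% and 64.2% (WT, KO) at a cycle limit of 2, 81.3% and 82.5% at 8, 80.6% and 81.0% thinned, 71.3% and 81.0% at a matrix limit of 3, and 72.2% and 79.6% without doublet-like cells. In each setting that gave it, the share of kept cells was higher in WT than in KO.

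Genes past 2-fold in KO numbered 163 higher and 117 lower on thinned counts, 338 and 237 at a filter of 10 CPM, and 14 and 4 at 100 CPM. Genes 4-fold over other cells numbered 38 with means over cells, 39 at 10 CPM, 12 at 100 CPM and 11 without doublet-like cells. Genes higher than in cycling cells numbered 5 at a cycle limit of 8, 5 with the thinned limit, 16 on thinned counts, 27 at 10 CPM, 1 at 100 CPM and 6 without doublet-like cells; genes lower numbered 163 and 26 at 10 and 100 CPM. The filters change the counts by testing more or fewer genes. Leaving out doublet-like cells also changes which other cells are compared. The part of that, and the cause for the other settings, was not tested.

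Over the listed genes and all genes past 2-fold, 2 of 428 ratios reversed on thinned counts and 0 under the other settings. None of the genes named in the report was counted as reversed. Only a ratio at least 2-fold in the main setting, in a gene with a mean level of at least 30 CPM, could be counted as reversed. A gene within 2-fold whose sign changed was not counted, so the statement does not cover such genes. Median-of-ratios size factors shifted every ratio by -0.07, so ratios just above 0 fell below it. The 24 genes named for KO against WT stayed past 2-fold in 12 of 12 settings, and Bloc1s1 in 10 of 12. Of genes within 2-fold in the main setting, Cdkn1a and the tubulin gene Tubb2b lay past it in 2 of 12 settings. Hes1 and Rapgef4 did so in 1 of 12. Leaving out the member with the most UMIs of a list was chosen after seeing the data, and moved keratinocyte sums to 79.1 and 561 CPM and the WT adipocyte sum to 59.1 CPM. No paired analysis was possible because each genotype had 1 library. Thinned settings gave no value for cells under 2000 UMIs, and some named genes had no ratio where too few UMIs were left. Low depth limits genes under 30 CPM.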
